A study of Mus musculus with 24 samples.

Results

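A set of 10 genes of the TGF-beta and BMP pathway and of the Id family was followed through 3 sorted populations of mouse tracheal epithelium: the ligands Tgfb1, Tgfb2, Bmp4 and Bmp7, the receptor Tgfbr2, the inhibitors Fst and Smad7, and the targets Id1, Id2 and Id3. They were taken by gene name, and all 10 had a row among the 35855 genes of the study. The minimum count for testing was met by 9 of them, Fst being the exception, among 12211 genes tested. The samples were 24 bulk RNA libraries, each from 1000 cells sorted from the tracheas of naive wild-type female C57BL/6 mice and made with SmartSeq2. The labels name the sorted subsets BCAM HI, BCAM LO and DIFFERENTIATED EPCS, with 8 libraries of each, of which 5 are labelled batch 1 and 3 batch 2; the title places the BCAM subsets among basal cells. No treatment, engineered allele or age is given, and what the batch number stands for is not given either. The labels do not say that replicates came from separate animals, so p-values here measure only the spread between these libraries.

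TGF-beta and BMP ligands are secreted proteins that bring together receptors of type I and type II on the cell surface, and these phosphorylate Smad proteins that enter the nucleus with Smad4. TGF-beta signals are best known for halting epithelial growth and BMP signals for switching on the Id genes, whose proteins bind basic helix-loop-helix transcription factors and keep them off DNA. In the airway, basal cells are the stem cells that replace secretory and ciliated cells, and the balance of these signals is known to bear on whether they divide or differentiate.

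Libraries held 1824619 to 4440072 estimated counts. Levels are given as CPM, estimated counts relative to the library size after TMM scaling, which evens out differences in composition, and as TPM, the relative share of transcripts, where genes are compared with each other, because TPM takes transcript length into account. Summed over 9 basal markers, CPM ran from 7019 to 10576 in the BCAM subsets and from 369 to 2799 in DIFFERENTIATED EPCS. Krt5, the keratin of that list, ran from 701 to 2135 CPM in the BCAM subsets and 0 to 2.78 CPM in DIFFERENTIATED EPCS. The basal sum in DIFFERENTIATED EPCS thus rests on other genes of the list. The DIFFERENTIATED EPCS libraries were of unlike make-up in the 2 batches. Transcripts of 8 airway secretory markers summed to 290072 to 423977 CPM in batch 1 and 13475 to 89610 CPM in batch 2, while 8 thyroid genes, led by thyroglobulin (Tg), summed to 13809 to 25955 CPM in batch 1 and 49464 to 116911 CPM in batch 2. All 8 thyroid genes and all 8 secretory genes were detected in both. A list of 7 parathyroid and neuroendocrine genes, led in batch 1 by parathyroid hormone (Pth), summed to 600 to 29262 CPM in batch 1 and 114 to 541 CPM in batch 2. In both batches the DIFFERENTIATED EPCS libraries thus go against their label as airway cells in part of their RNA. The 3 BCAM LO libraries of batch 2 lay at -6.74 to 7.10 on the first principal component of all genes, which carried 40.8% of the variance, and the other 5 at -40.7 to -32.3. Secretory markers summed to 63881 to 75116 CPM in these 3 and 34448 to 55725 CPM in the other 5. For 8 ciliated markers the sums were 668 to 1117 and 486 to 576 CPM, with Foxj1 at 41.9 to 61.7 and 0.473 to 4.43 CPM. Their part in the batch changes of BCAM LO below was not tested. Bcam transcripts, the gene of the sort, ran from 324 to 739 CPM in BCAM HI and 224 to 457 CPM in BCAM LO. In DIFFERENTIATED EPCS they ran from 109 to 252 CPM in batch 1 and 458 to 907 CPM in batch 2. The batch 2 mean of DIFFERENTIATED EPCS, 751 CPM, was above that of BCAM HI, 631 CPM.

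Among the members, the Id genes were the most abundant per length. Mean TPM in BCAM HI was 118 ± 32.0 for Id1, 64.6 ± 19.3 for Id3 and 62.0 ± 7.15 for Id2 (SD, n = 8 for each). Bmp4 at 15.2 ± 5.75 TPM and Tgfbr2 at 13.9 ± 3.64 TPM followed, and Tgfb2, Bmp7, Smad7 and Tgfb1 lay between 5.88 and 3.21 TPM, with Fst last at 1.07 TPM. Within this order Id3 and Id2, Bmp4 and Tgfbr2, and the 4 genes from Tgfb2 to Tgfb1 differed from their neighbours by less than the SDs. In DIFFERENTIATED EPCS the order was another: Id3 led at 180 ± 133 TPM, ahead of Id1 at 53.8 ± 24.6 TPM, and Bmp7 fell to 0.459 ± 0.295 TPM, near Tgfb1 at 0.562 ± 0.691 TPM and Fst at 0.281 ± 0.290 TPM. Tgfbr2 at 8.79 ± 2.16 TPM lay above Bmp4 at 5.52 ± 5.62 TPM there, by less than the SD of Bmp4. In BCAM LO the order followed that of BCAM HI at the top, with Id1 at 91.2 ± 36.5 TPM. These sums take in transcripts that the annotation does not class as protein-coding. In BCAM HI, protein-coding transcripts alone gave mean TPM of 53.3 for Id3 and 10.3 for Bmp4, the latter then under Tgfbr2. They gave 4.66 for Bmp7, 4.58 for Smad7, 1.51 for Tgfb2, 0.469 for Tgfb1 and 0.446 for Fst. For Id1, Id2 and Tgfbr2 all transcripts were protein-coding.

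Against DIFFERENTIATED EPCS, the BCAM subsets held more Bmp7, Bmp4 and Smad7, and less Id3. Of the 9 members tested, 5 passed the test in BCAM HI against DIFFERENTIATED EPCS, where 41.3% of all genes tested did: Bmp7, Smad7, Bmp4 and Tgfb1 were higher in BCAM HI, as were 19.4% of all genes, and Id3 was lower, as were 22%. In BCAM LO against DIFFERENTIATED EPCS 5 of 9 also passed, where 33.5% of all genes did: Bmp7, Smad7, Bmp4 and Tgfbr2 were higher in BCAM LO, as were 16.3% of all genes, and Id3 was lower, as were 17.1%. The median log2 difference of the 9 was 0.46 and 0.41, beside 0.02 and 0.02 for all genes. Both comparisons use the same DIFFERENTIATED EPCS libraries. Whether fewer cells of a kind or less RNA per cell lies behind a level cannot be told apart in bulk RNA.

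Bmp7, a BMP ligand of epithelia, had the widest difference of the 4 ligands. Its CPM ran from 8.23 to 23.2 with a median of 11.2 in BCAM HI, from 8.09 to 31.3 with a median of 18.1 in BCAM LO, and from 0.427 to 2.48 with a median of 2.17 in DIFFERENTIATED EPCS. All 16 BCAM libraries lay above all 8 DIFFERENTIATED EPCS libraries, in which Bmp7 rested on 1 to 5 counts per library. Ranges that did not overlap were found in 13.4% of all genes for BCAM HI and 7.27% for BCAM LO against DIFFERENTIATED EPCS. Bmp7 was 7.28-fold higher in BCAM HI (log2 2.86, SE 0.30, edgeR quasi-likelihood adjusted p = 7.33e-09) and 9.61-fold higher in BCAM LO (log2 3.26, SE 0.30, edgeR adjusted p = 1.07e-09). The difference was there in each batch, at 2.24 and 3.83 (log2) for BCAM HI and 2.76 and 4.07 for BCAM LO in batches 1 and 2. Basal marker transcripts moved with it, as given above, and their part in the result was not tested.

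Bmp4, a ligand that mesenchyme and epithelium both make during lung development, followed the same direction with more overlap. It ran from 8.49 to 20.8 CPM (median 15.7) in BCAM HI, 6.18 to 22.9 (median 12.4) in BCAM LO and 0.853 to 14.1 (median 6.05) in DIFFERENTIATED EPCS. All 8 libraries of each BCAM subset were above the DIFFERENTIATED EPCS median, but the ranges overlapped. The DIFFERENTIATED EPCS libraries at 12.1 and 14.1 CPM lay within both BCAM ranges, and those at 8.44 and 6.55 CPM within the range of BCAM LO. The log2 difference was 1.26 (SE 0.35, edgeR adjusted p = 0.00415) for BCAM HI and 1.00 (SE 0.35, edgeR adjusted p = 0.0279) for BCAM LO. The BCAM HI call was lost in batch 2 alone (1.30, adjusted p = 0.246) and with transcript length offsets (0.83, 0.178). The BCAM LO call was lost in batch 2 alone (0.62, 0.681), with length offsets (1.11, 0.0838), in a fit to the 2 subsets alone (0.98, 0.0675) and without BCAM LO 2 (adjusted p = 0.0627), or DIFFERENTIATED EPCS 2 (0.0592), 4 (0.0529) or 8 (0.0557). Fibroblast marker transcripts, 8 genes in all, summed to 69.3 to 673 CPM in the BCAM subsets and 0.411 to 325 CPM in DIFFERENTIATED EPCS. In the BCAM subsets Dcn alone was at 61.8 to 667 CPM, beside 0 to 7.10 CPM in DIFFERENTIATED EPCS. Pdgfra, at 0 to 4.65 and 0.411 to 59.9 CPM, and Col1a1, at 0 to 34.8 and 0 to 51.8 CPM, did not follow Dcn. The part of these transcripts in the result was not tested. An antisense gene, Gm15217, overlaps Bmp4 and reached 1.29 CPM at most.

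Tgfb1, the ligand best known from fibrosis and immune restraint, was sparse throughout. BCAM HI held 1.05 to 9.41 CPM (median 4.64), BCAM LO 0.857 to 4.41 (median 2.75) and DIFFERENTIATED EPCS 0 to 2.82 (median 0.896), where 3 of 8 libraries had no count. Against DIFFERENTIATED EPCS, Tgfb1 was higher in BCAM HI by 1.95 (log2, SE 0.58, edgeR adjusted p = 0.00766). For BCAM LO the value was 1.24 (edgeR adjusted p = 0.109, 95% interval 0.02 to 2.46). Most of these counts fell on transcripts that the annotation does not class as protein-coding: the protein-coding transcript took 17.8% of the estimated counts in BCAM HI, 8.23% in BCAM LO and 31.0% in DIFFERENTIATED EPCS. Within either batch alone the BCAM HI value, 1.98 in batch 1 and 1.93 in batch 2, missed the threshold (edgeR adjusted p = 0.0511 and 0.147), and BCAM LO passed without DIFFERENTIATED EPCS 5 (1.64, 0.0488).

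Tgfb2, a ligand close to Tgfb1, did not pass in any of the 3 comparisons. It ran from 5.04 to 10.9 CPM in BCAM HI, 3.31 to 9.60 in BCAM LO and 2.13 to 16.4 in DIFFERENTIATED EPCS, the widest spread of the 3. BCAM HI and DIFFERENTIATED EPCS differed by -0.02 (log2, 95% interval -0.68 to 0.65), a value whose sign changed with the libraries left out. BCAM LO and DIFFERENTIATED EPCS differed by -0.53 (95% interval -1.20 to 0.13).

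Tgfbr2, the type II receptor that binds TGF-beta ligands, was measured on more counts than any ligand here. It ran from 46.06 to 84.9 CPM (median 66.4) in BCAM HI, 64.5 to 104 (median 86.2) in BCAM LO and 45.2 to 88.6 (median 62.9) in DIFFERENTIATED EPCS. The subsets overlapped, with BCAM LO the highest by its median. BCAM LO was 1.33-fold above DIFFERENTIATED EPCS (log2 0.41, SE 0.14, edgeR adjusted p = 0.0225), with 8 of 8 libraries above the other subset's median. BCAM HI differed from DIFFERENTIATED EPCS by 0.05 (95% interval -0.23 to 0.34, edgeR adjusted p = 0.801). The BCAM LO call was lost without DIFFERENTIATED EPCS 7 (0.35, adjusted p = 0.0507) and in batch 1 alone (0.25, adjusted p = 0.256), and held in batch 2 alone (0.70, adjusted p = 0.0175). It was lost under 4 of 13 alternatives to the main fit, batch 1 alone among them, and kept under 9. The values over the 13 ran from 0.23 to 0.90 (log2).

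Smad7, the inhibitory Smad that blocks the activated receptors and is itself switched on by the pathway, was higher in both BCAM subsets. It ran from 7.43 to 20.8 CPM (median 13.3) in BCAM HI, 6.62 to 14.1 (median 11.2) in BCAM LO and 1.69 to 7.64 (median 4.51) in DIFFERENTIATED EPCS. Only the highest DIFFERENTIATED EPCS library reached into the lower end of the BCAM ranges. The fold was 2.92 for BCAM HI (log2 1.54, SE 0.27, edgeR adjusted p = 3.34e-05) and 2.44 for BCAM LO (log2 1.29, SE 0.27, edgeR adjusted p = 5.36e-04). Both held within each batch alone, between 1.01 and 1.90 (log2), with adjusted p up to 0.0260. Fst, which encodes follistatin, a secreted protein that binds activins and some BMPs, had 50 counts over all BCAM HI libraries, 55 over BCAM LO and 14 over DIFFERENTIATED EPCS. With all genes kept in, its adjusted p was 0.970, 0.397 and 0.330 for BCAM HI against BCAM LO, BCAM HI against DIFFERENTIATED EPCS and BCAM LO against DIFFERENTIATED EPCS by edgeR, so a difference was not detectable at this depth.

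**Figure D1:**
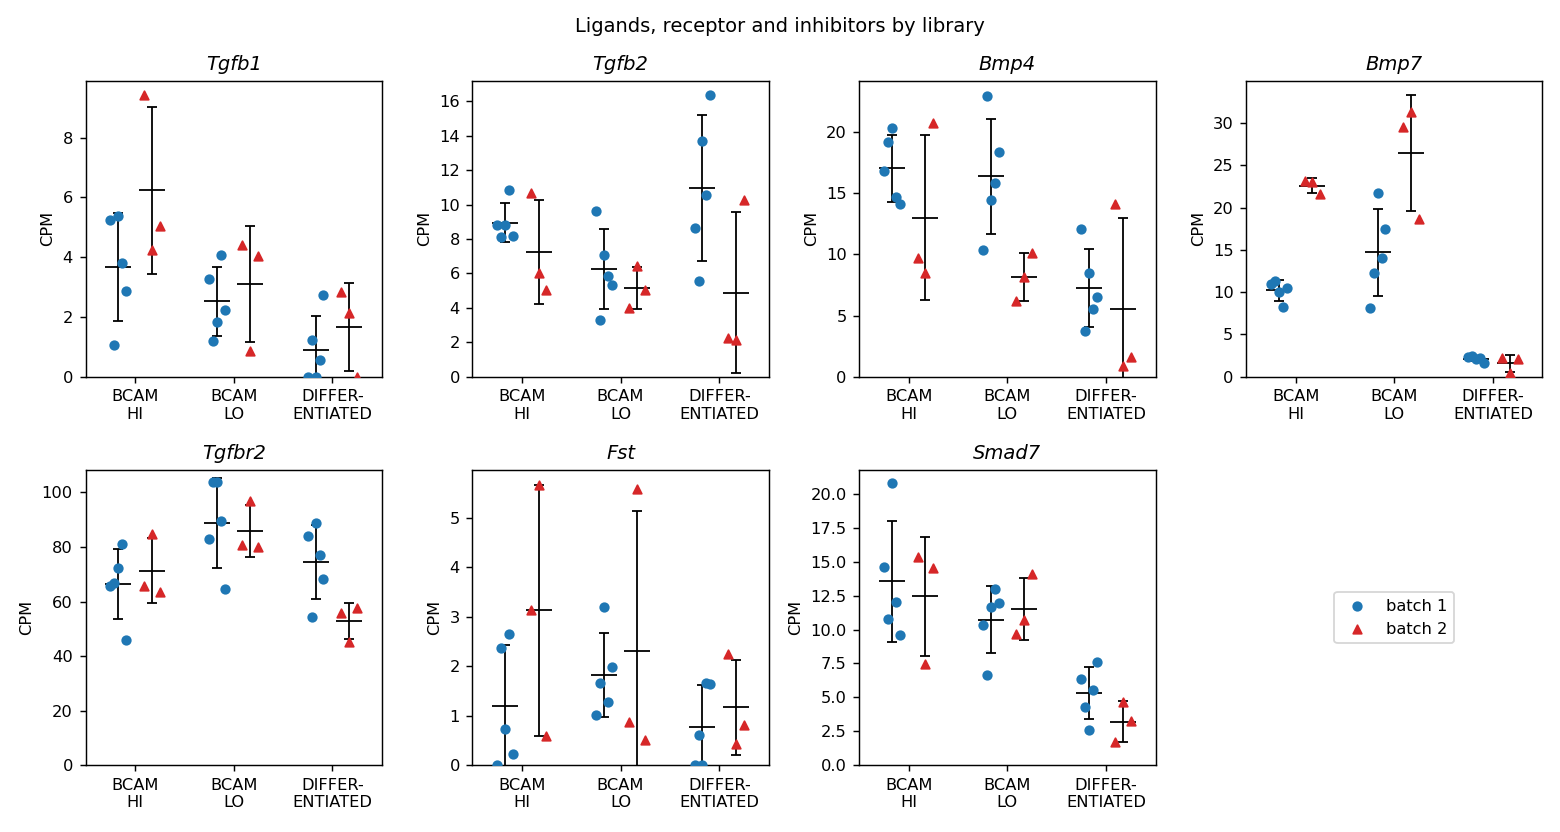
CPM (vertical axis) of the 4 ligands, Tgfbr2, Fst and Smad7 in each library of the 3 sorted subsets, with blue circles for batch 1 and red triangles for batch 2; the bars give the mean and SD of each batch. Bmp7 in DIFFERENTIATED EPCS stays at or under 2.48 CPM, below every BCAM library, whereas Tgfb2 and Tgfbr2 overlap in all 3 subsets.

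Between BCAM HI and BCAM LO, the 2 basal subsets, none of the 9 members tested passed by edgeR's quasi-likelihood test, where 7.02% of all genes did. By DESeq2's Wald test 0 passed as well, and 1 of the 9, Tgfbr2, had an unadjusted p under 0.05. Tgfbr2 was at -0.36 in BCAM HI against BCAM LO (log2, SE 0.14, edgeR adjusted p = 0.114, 95% interval -0.64 to -0.08), with 8 of 8 BCAM HI libraries under the BCAM LO median. In a fit to these 2 subsets alone it passed, at -0.38 (edgeR adjusted p = 0.0456). The intervals of the others leave room for differences of different size: -0.87 to 0.07 for Bmp7, -0.32 to 1.74 for Tgfb1, -0.13 to 1.17 for Tgfb2, -0.39 to 0.92 for Bmp4 and -0.25 to 0.76 for Smad7. Those of the Id genes ran from -0.29 to 0.61 for Id1, -0.20 to 0.69 for Id2 and -0.64 to 0.96 for Id3. These do not show that the subsets hold equal amounts.

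**Figure D2:**
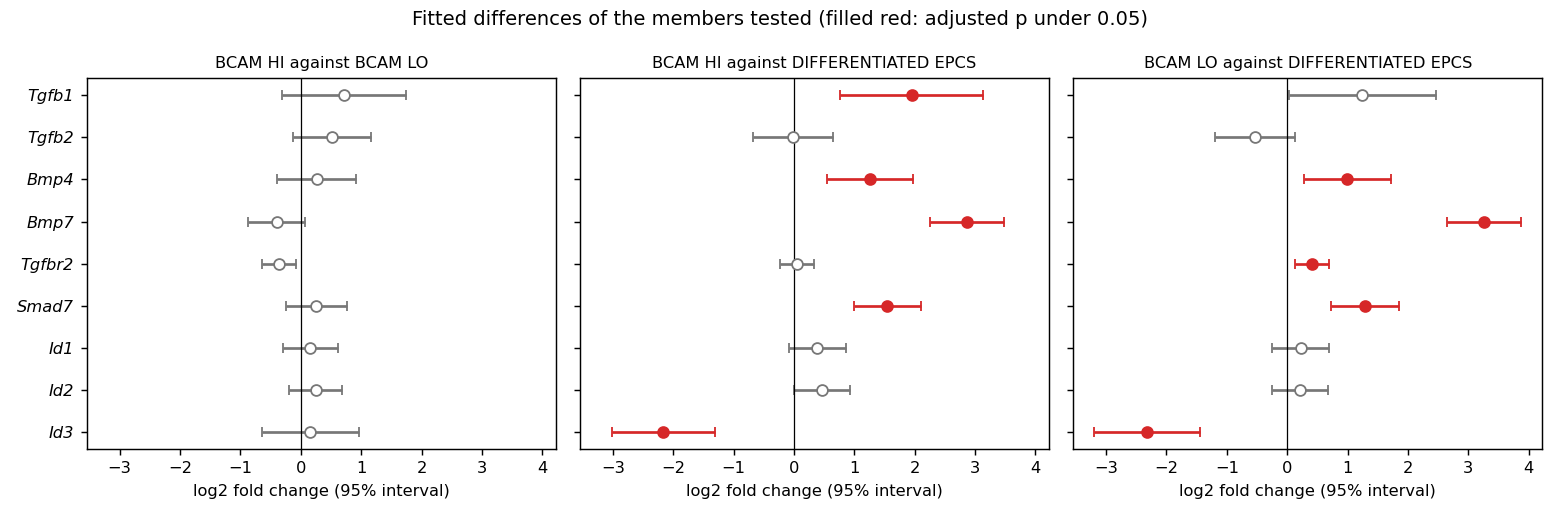
Log2 fold change (horizontal axis) with its 95% interval for the 9 members tested in each of the 3 comparisons, positive where the subset named first is higher; filled red points passed an adjusted p of 0.05. No member passes between the BCAM subsets, and Bmp7 at 2.86 and 3.26 and Id3 at -2.16 and -2.32 lie farthest from 0 against DIFFERENTIATED EPCS.

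The Id genes were set apart by the batch. All 3 rose from batch 1 to batch 2 in DIFFERENTIATED EPCS, while Id1 fell in both BCAM subsets and Id3 in BCAM LO. The change between subsets therefore differed between batches: of the 9 members, Id1, Id2 and Id3 passed the test of that difference, the interaction, both for BCAM HI against DIFFERENTIATED EPCS, where 8.69% of all genes passed, and for BCAM LO against DIFFERENTIATED EPCS, where 11.4% did. For BCAM HI against BCAM LO, 0 of 9 members passed by edgeR, where 1.06% of all genes did, and 0 had an unadjusted p under 0.05. By DESeq2's Wald test 0 of the 9 passed as well. From batch 1 to batch 2, 2 of 9 members passed in BCAM HI and 2 in BCAM LO, beside 8.04% and 11.1% of all genes, and 3 in DIFFERENTIATED EPCS, beside 20.1%.

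Id1, known as a direct target of BMP Smads, changed its order with the batch. In batch 1 its CPM was 97.8, 124, 86.4, 97.3 and 101 in BCAM HI, 97.3, 95.5, 112, 74.4 and 83.5 in BCAM LO, and 47.2, 43.3, 49.6, 48.9 and 49.7 in DIFFERENTIATED EPCS. In batch 2 it was 51.1, 47.0 and 63.7 in BCAM HI, 35.7, 39.0 and 61.0 in BCAM LO, and 92.1, 74.2 and 74.9 in DIFFERENTIATED EPCS. DIFFERENTIATED EPCS was thus the lowest subset in batch 1 and the highest in batch 2, with no overlap with either BCAM subset in either batch. Of all genes, 26.1% in BCAM HI and 22.4% in BCAM LO did not overlap with DIFFERENTIATED EPCS in batch 1, and 42.5% and 32.9% in batch 2. The batches did not overlap in any of the 3 subsets, which was so for 18.9%, 18.3% and 21.7% of all genes in BCAM HI, BCAM LO and DIFFERENTIATED EPCS. From batch 1 to batch 2 Id1 changed by -0.90 (log2, edgeR adjusted p = 0.00109) in BCAM HI, -1.04 (1.63e-04) in BCAM LO and 0.75 (0.00201) in DIFFERENTIATED EPCS.

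Taken over both batches, Id1 did not pass in either comparison with DIFFERENTIATED EPCS, at 0.38 (edgeR adjusted p = 0.186) for BCAM HI and 0.23 (0.478) for BCAM LO. These averages join opposite values. In batch 1 alone, BCAM HI was 1.08 (log2) above DIFFERENTIATED EPCS (edgeR adjusted p = 4.27e-07, with 33.7% of all genes passing) and BCAM LO 0.95 above (4.29e-06, 33.1%). In batch 2 alone, BCAM HI was at -0.57 (edgeR adjusted p = 0.0724, 29.6% of genes passing) and BCAM LO was lower, at -0.83 (0.0209, 17.9%). The interaction was -1.65 (SE 0.25, edgeR adjusted p = 3.20e-05) for BCAM HI and -1.79 (SE 0.25, 1.08e-05) for BCAM LO. Without DIFFERENTIATED EPCS 6 the BCAM HI value over both batches passed, at 0.53 (adjusted p = 0.0487).

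Id2, which encodes the Id protein also known from lymphocyte and lung-tip development, moved alike in DIFFERENTIATED EPCS. That subset held 22.5, 30.3, 38.5, 27.2 and 25.1 CPM in batch 1 and 66.1, 65.7 and 69.5 CPM in batch 2, a rise of 1.22 (log2, SE 0.20, edgeR adjusted p = 4.95e-05). BCAM HI held 49.7 to 70.7 CPM in batch 1 and 43.2 to 56.5 in batch 2, and BCAM LO 44.3 to 66.4 in batch 1 and 27.8 to 55.0 in batch 2. In the BCAM subsets the batches overlapped and the changes, -0.31 and -0.49, did not pass (edgeR adjusted p = 0.383 and 0.121), the second passing without BCAM LO 8 (-0.83, 0.0140). Over both batches Id2 differed by 0.46 (edgeR adjusted p = 0.104) for BCAM HI and 0.21 (0.500) for BCAM LO against DIFFERENTIATED EPCS, the first passing without DIFFERENTIATED EPCS 8 (0.57, 0.0417). In batch 1 alone the values were 1.13 (6.60e-06) and 0.92 (1.22e-04), and in batch 2 alone -0.40 (0.233) and -0.79 (0.0371), by the same test. The interaction was -1.53 (edgeR adjusted p = 4.92e-04) for BCAM HI and -1.71 (1.23e-04) for BCAM LO.

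Part of the stretch before the RefSeq start of Id2 is printed because BMP Smads are known to act on Id genes through upstream elements that hold GGCGCC; bases that the annotation places in an untranslated exon are left out. It covers 162 to 250 bases before the RefSeq start on the minus strand, GRCm38.p6 chr12:25096254-25096342, and the capitals mark GGCGCC. GENCODE also annotates a longer Id2 transcript that starts farther out, and the stretch lies in an intron of that transcript, within the annotated gene.
Id2 before the RefSeq start: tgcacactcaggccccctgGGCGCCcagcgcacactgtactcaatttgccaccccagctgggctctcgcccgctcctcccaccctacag
Searched on both strands, GGCGCC occurs at base 20 of these 89 and in 2.73% of the same 89-base windows of 32851 promoters. CANNTG, the E-box that basic helix-loop-helix factors bind, occurs at base 55 and in 33.0% of windows. GTCT, the short Smad element, has no match here and is found in 49.5% of windows. These are matches of letters only.

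Id3 was the member that set DIFFERENTIATED EPCS highest. In batch 1 its CPM was 64.7, 80.7, 73.9, 65.8 and 57.6 in BCAM HI, 58.1, 79.7, 75.9, 70.4 and 57.2 in BCAM LO, and 158, 114, 73.3, 208 and 198 in DIFFERENTIATED EPCS. In batch 2 it was 35.1, 30.1 and 64.6 in BCAM HI, 19.4, 22.7 and 35.8 in BCAM LO, and 546, 480 and 347 in DIFFERENTIATED EPCS. In batch 1 the lowest DIFFERENTIATED EPCS library lay within the BCAM ranges, and in batch 2 the lowest was far above them. Over both batches Id3 was 4.48-fold lower in BCAM HI (log2 -2.16, SE 0.41, edgeR adjusted p = 1.91e-04) and 5.00-fold lower in BCAM LO (log2 -2.32, SE 0.42, 1.81e-04). Within batches the values were -1.13 (edgeR adjusted p = 2.41e-04) and -3.40 (3.15e-05) for BCAM HI and -1.14 (2.73e-04) and -4.14 (2.07e-05) for BCAM LO, in batches 1 and 2.

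The direction of Id3 was thus the same in both batches and its size was not: the interaction was -2.26 (SE 0.40, edgeR adjusted p = 5.98e-04) for BCAM HI and -3.01 (SE 0.41, 3.68e-05) for BCAM LO. From batch 1 to batch 2 Id3 rose by 1.61 (log2, edgeR adjusted p = 1.35e-04) in DIFFERENTIATED EPCS and fell by 1.40 (0.00446) in BCAM LO. In BCAM HI the value was -0.66 (0.180), and -1.08 (0.0315) without BCAM HI 8. Without the 3 batch 2 libraries of DIFFERENTIATED EPCS, a setting chosen after the data were seen, Id3 was at -0.998 (log2, edgeR adjusted p = 0.00260) in BCAM HI and at -1.26 (3.11e-04) in BCAM LO.

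Between the batches, thyroid transcripts moved with the Id genes in DIFFERENTIATED EPCS. In batch 1 the 8 thyroid genes summed to 15684, 14166, 13809, 25955 and 24776 CPM, and in batch 2 to 83167, 116911 and 49464 CPM, in the order of libraries used for the Id values above. The 5 batch 1 libraries fall in the same order by Id3 and by thyroid transcripts. The 3 batch 2 libraries do not, since the one with most thyroid transcripts is the second in Id3. Id1 and Id2 follow the order of thyroid transcripts in neither batch. In batch 1 Id2 was highest, at 38.5 CPM, in the library with least thyroid transcripts. In batch 2 Id1 and Id2 were lowest, at 74.2 and 65.7 CPM, in the library with most. Thyroid transcripts were 2.20 to 42.0 CPM in batch 1 and 10.1 to 1286 CPM in batch 2 of the BCAM subsets, where Id1 was lower in batch 2. Secretory transcripts in DIFFERENTIATED EPCS were lower in batch 2, where thyroid transcripts were higher, as given above. Basal markers in DIFFERENTIATED EPCS were 2252 to 2799 CPM in batch 1 and 369 to 1148 CPM in batch 2, with Krt5 at 0 to 2.78 and 0 to 2.47 CPM. The 7 immune markers summed to 18780 to 25241 CPM in batch 1 and 1352 to 14492 CPM in batch 2, but their defining gene Ptprc was at 0.546 to 3.17 and 0 to 1.28 CPM, and Cd74 was higher in batch 2, at 43.2 to 204 CPM beside 24.02 to 41.5 CPM. The parathyroid and neuroendocrine genes were lower in batch 2, as given above. The part of any of these in the Id values was not tested.

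**Figure D3:**
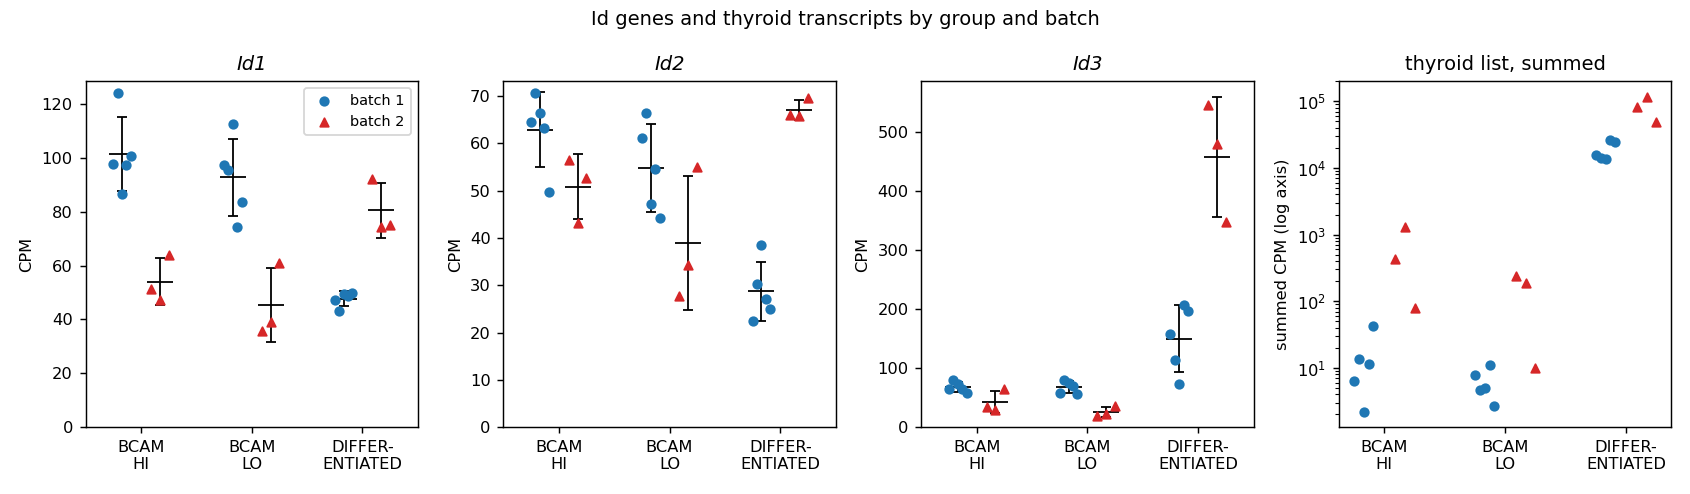
CPM of Id1, Id2 and Id3 and the summed CPM of 8 thyroid genes (last panel, log axis) in each library of the 3 sorted subsets, with blue circles for batch 1, red triangles for batch 2, and bars for the mean and SD of each batch in the Id panels. In DIFFERENTIATED EPCS all 3 Id genes and the thyroid genes are higher in batch 2, and Id1 is lower in batch 2 in the BCAM subsets.

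Id4, the remaining gene of the Id family and no member, held 13.9 to 33.3 CPM in batch 1 and 30.9 to 74.0 CPM in batch 2 of DIFFERENTIATED EPCS, a rise of 1.17 (log2, edgeR adjusted p = 0.0105). It fell in BCAM LO by 1.11 (0.0418), and its value in BCAM HI was 0.02 (0.982). Its interaction passed for BCAM LO against DIFFERENTIATED EPCS (-2.29, edgeR adjusted p = 0.00182) and not for BCAM HI (-1.15, 0.138). Other genes that BMP Smads are known to switch on gave other values. Smad6, an inhibitory Smad, had interactions of -0.0073 and -0.65 against DIFFERENTIATED EPCS (edgeR adjusted p = 0.998 and 0.673), and Bambi, a decoy receptor, 0.07 and 0.04 (0.955 and 0.974). Atoh8, a helix-loop-helix factor, was lower in batch 2 in BCAM HI (-2.46, edgeR adjusted p = 0.00163) and in DIFFERENTIATED EPCS (-1.82, 0.0250), where the Id genes rose.

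Bmp7 was the other member to change with the batch. It held 8.23 to 11.3 CPM in batch 1 and 21.6 to 23.2 CPM in batch 2 of BCAM HI, a rise of 1.14 (log2, SE 0.30, edgeR adjusted p = 0.0163). Bmp7 did not overlap between the batches there, which was so for 18.9% of all genes. In BCAM LO it held 8.09 to 21.7 and 18.7 to 31.3 CPM (0.85, edgeR adjusted p = 0.0670), and in DIFFERENTIATED EPCS 1.64 to 2.48 and 0.427 to 2.26 CPM (-0.46, 0.582). The BCAM HI call was lost without BCAM HI 6 (1.11, adjusted p = 0.0783) or 7 (1.12, 0.0718), and the BCAM LO value passed without BCAM LO 3 (1.03, 0.0300) or 8 (1.03, 0.0471) or DIFFERENTIATED EPCS 7 (0.85, 0.0466). The interactions, 1.61 and 1.31 against DIFFERENTIATED EPCS, did not pass (edgeR adjusted p = 0.0991 and 0.174). Basal markers summed to 8064 to 9120 CPM in batch 1 and 10066 to 10576 CPM in batch 2 of BCAM HI. In BCAM LO they did not rise, at 7019 to 8388 CPM (median 7656) in batch 1 and 7105 to 7665 CPM (median 7294) in batch 2. Their part in the Bmp7 values was not tested.

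The other genes of the pathway were taken from a list of 82, of which 61 were tested. Against DIFFERENTIATED EPCS, 25 were higher and 7 lower in BCAM HI, and 25 were higher and 6 lower in BCAM LO. The medians were 0.28 and 0.35 (log2) beside 0.02 and 0.02 for all genes. These counts leave out the 21 genes not tested. Among those, mean CPM in BCAM HI, BCAM LO and DIFFERENTIATED EPCS was 1.69, 1.68 and 12.2 for Smad9. It was 0.731, 0.746 and 10.1 for Ltbp2 and 0.808, 1.36 and 6.23 for Bmp2. Mstn, at 1.70, 1.69 and 0.0514, and Nrros, at 2.68, 5.54 and 1.47, went the other way. The shares called, 32 and 31 of 61, stand beside the 41.3% and 33.5% of all genes given above. The counts by role below stand beside the same shares. Between BCAM HI and BCAM LO 3 of 61 passed, beside the 7.02% of all genes. Tgfbi, a matrix protein induced by TGF-beta, was higher in BCAM HI (47.5 against 22.8 CPM, log2 1.05, edgeR adjusted p = 0.0170), as was Tgif1, a repressor of Smad transcription (138 against 104 CPM, log2 0.42, 0.0321). Cdkn2b, the cell-cycle inhibitor induced by TGF-beta, was lower in BCAM HI (1.79 against 7.86 CPM, log2 -2.05, edgeR adjusted p = 0.00342).

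Among the 7 other ligands tested, of 13 listed, 3 were higher and 1 lower in each BCAM subset against DIFFERENTIATED EPCS. Bmp5, at 53.4 CPM in BCAM HI, 45.1 in BCAM LO and 51.2 in DIFFERENTIATED EPCS, passed in neither (edgeR adjusted p = 0.773 and 0.531). Bmp3, which opposes other BMPs, was at 75.5 CPM in BCAM HI, 41.6 in BCAM LO and 7.13 in DIFFERENTIATED EPCS (log2 3.46 and 2.57, edgeR adjusted p = 1.40e-06 and 1.05e-04). Gdf15, a stress-induced member of the family, went the other way, at 2.53, 1.44 and 33.7 CPM (log2 -3.64 and -4.44, edgeR adjusted p = 7.71e-06 and 2.04e-06). Of 11 other receptors, 4 passed in BCAM HI and 3 in BCAM LO, each of them higher. These shares, 36.4% and 27.3%, were under the 41.3% and 33.5% of all genes. Eng, a co-receptor known best from endothelium, was at 5.80, 7.44 and 1.34 CPM (log2 2.21 and 2.43, edgeR adjusted p = 0.0165 and 0.0111), while 7 endothelial markers summed to 15.6 to 65.4 CPM in the BCAM subsets and 5.18 to 43.5 CPM in DIFFERENTIATED EPCS, whose part was not tested.

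Of 16 Smads and other regulators inside the cell, 6 were higher and 1 lower in each BCAM subset. That share, 43.75% in each, stands beside 41.3% of all genes for BCAM HI and 33.5% for BCAM LO. Of 12 secreted inhibitors listed other than Fst, 5 were tested and 4 of these were higher in each. The other 7 had too few counts to be tested, and some of them had the higher mean in DIFFERENTIATED EPCS: Grem1 was at 0.208 CPM in BCAM HI and 4.62 CPM in DIFFERENTIATED EPCS, Sostdc1 at 1.18 and 7.84, Chrdl1 at 0.695 and 3.40, and Bmper at 0 and 1.78. The genes of latency and activation, which hold TGF-beta in the matrix and release it, were split: 2 of 9 were higher and 3 lower in BCAM HI, and 3 higher and 3 lower in BCAM LO. Ltbp4, a latent TGF-beta binding protein, was at 341 CPM in BCAM HI, 263 in BCAM LO and 38.3 in DIFFERENTIATED EPCS (log2 3.24 and 2.80, edgeR adjusted p = 9.10e-11 and 1.68e-09), and Bmp1, a protease that releases such ligands, at 34.9, 28.5 and 9.99 CPM (log2 1.83 and 1.57, 2.57e-07 and 6.09e-06). Ltbp1 (12.2, 16.1 and 33.2 CPM) and Ltbp3 (36.1, 38.5 and 58.6 CPM), relatives of Ltbp4, and Thbs1, an activator of latent TGF-beta (50.8, 28.2 and 290 CPM), were lower in both BCAM subsets, with edgeR adjusted p from 3.43e-05 to 0.0109. The Thbs1 mean in DIFFERENTIATED EPCS covers libraries from 57.0 to 795 CPM. In that subset 6 of the 9 genes of latency and activation changed between batches, 5 higher and 1 lower in batch 2, beside 20.1% of all genes.

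Of 8 other targets, 4 were higher in each BCAM subset and 1 was lower in BCAM HI. Tgfbi was at 47.5, 22.8 and 6.30 CPM (log2 2.89 and 1.84 against DIFFERENTIATED EPCS, edgeR adjusted p = 3.11e-08 and 6.03e-05), and Cdkn2b was lower in BCAM HI against DIFFERENTIATED EPCS (log2 -1.93, 7.68e-04). Of 5 partners of Id proteins and related helix-loop-helix factors, 2 were higher and 1 lower in each subset, Max being the lower one (17.2 against 30.8 CPM in BCAM LO, log2 -0.84, edgeR adjusted p = 0.00148). By the test of the interaction, 5 of the 61 passed for BCAM HI and 9 for BCAM LO against DIFFERENTIATED EPCS. These shares, 8.20% and 14.8%, stand beside 8.69% and 11.4% of all genes. Each of these interactions was negative, whereas 661 of 1061 and 832 of 1388 calls over all genes were positive. The calls were uneven by role: of 9 genes of latency and activation, 4 passed for BCAM LO and 0 for BCAM HI. That role was picked out after values were seen.

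**Figure D4:**
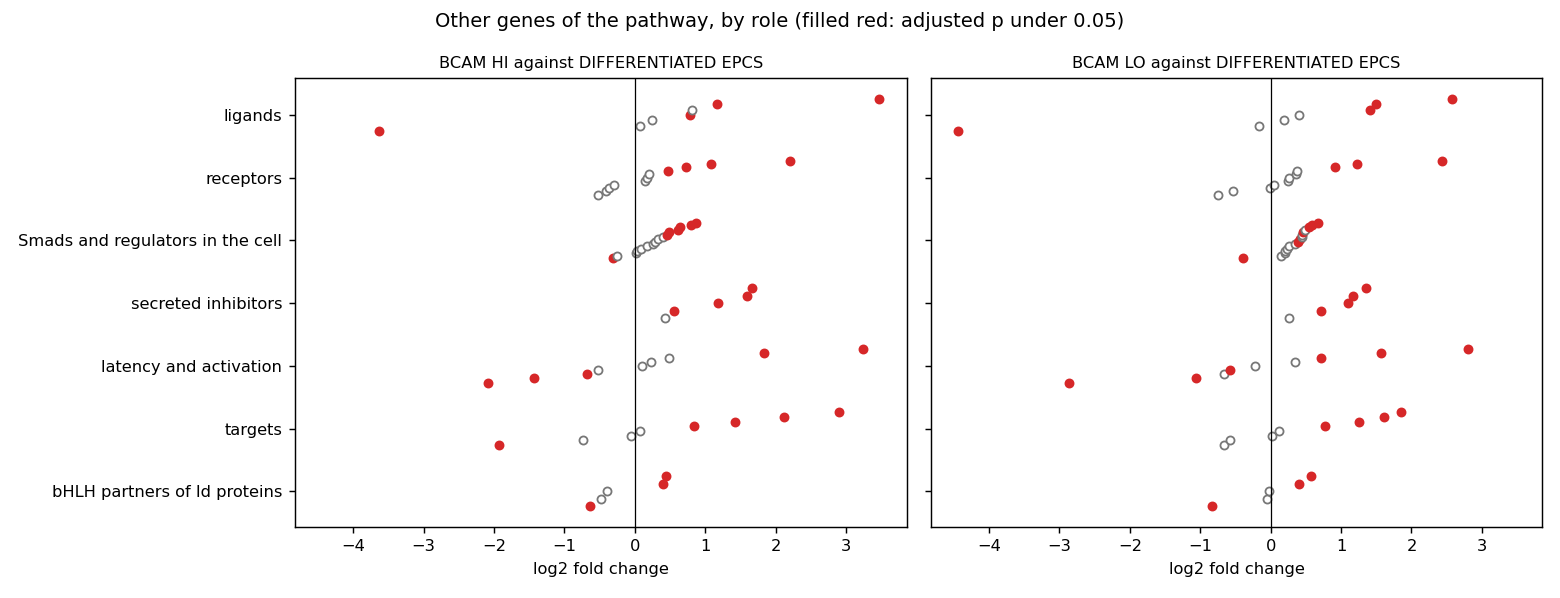
Log2 fold change (horizontal axis) of the 61 other pathway genes tested, grouped by role, for BCAM HI and BCAM LO against DIFFERENTIATED EPCS, each point being 1 gene and filled red where the adjusted p was under 0.05. Of the 12 secreted inhibitors listed, the 5 tested lie to the right of 0, with 4 passing, whereas the genes of latency and activation lie on both sides.

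Across the 24 libraries, the genes with the pattern most like each member, by Pearson's r of log2 CPM, were Sfrp1 (0.933), Ajuba (0.924) and Col17a1 (0.923) for Bmp7, and Afap1l2 (0.953) and Mt1 (0.949) for Id3. For Smad7 they were Kremen1, Sulf1 and Gna15 (0.879 to 0.876), for Bmp4 Igfbp7, Cdc42ep3 and Snrpb2 (0.877 to 0.836), and for Id1 Ank, S100a10 and Ranbp3 (0.883 to 0.810). Inf2, Tenm3 and N4bp2l2 led for Id2 (0.839 to 0.812), Smc3, Nvl and Tiparp for Tgfb1 (0.826 to 0.785), Csnk1e, Slk and Zbtb7c for Tgfbr2 (0.762 to 0.747) and Apol9b, Fopnl and Aox3 for Tgfb2 (0.758 to 0.723). Among the members themselves, r was 0.766 for Id1 with Id2 and -0.873 for Bmp7 with Id3, and 0.457 and -0.150 once the mean of each subset and batch had been taken out. Each r rests on the same libraries, whose subset, batch and depth the genes share, and is a description.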

How the data were processed

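Per the submitters' processing notes, kallisto 46.1 and Picard were used and the build GRCm39 is named, with no roles given. The files deposited by the authors hold estimated counts and TPM per transcript. Transcripts were matched to GENCODE M21 (116374 of 117497; the other 1123 held 0.317% to 0.594% of counts) for gene names, summed per gene and rounded. Id2's upstream sequence is from RefSeq (GRCm38.p6), which had promoters for 6 of the 10 genes. R 4.3.3 and edgeR 4.0.16 were used: TMM, filterByExpr, a robust quasi-likelihood fit of subset and batch over 24 libraries, and Benjamini-Hochberg adjustment over all genes tested, with calls under 0.05. A fit with a mean per subset and batch gave interactions and batch changes. Intervals are 95%. The counting is not stated to use strand. All 10 genes are named; of the other pathway genes, per comparison and direction, the 5 largest changes called with at least 5 CPM in a group; as most alike, 3 genes per member with a mean of at least 10 CPM, of which 1 is not reported here. Genes named beyond these, with batch values (Id4, Smad6, Bambi, Atoh8) or as not tested or not passing, were chosen after values were seen. Alternatives included DESeq2 1.42.0 and limma 3.58.1 on log2(TPM + 0.1) and log2(TPM + 1). Scripts were tested on simulated data. Members and lists were chosen with earlier results of these data known.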

Additional observations from a re-analysis of the deposited data

Results flagged for a closer look

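The difference between a BCAM subset and DIFFERENTIATED EPCS was not the same in the 2 batches for the 3 Id genes. By edgeR's interaction test, batch 2 minus batch 1, the value for BCAM HI was -1.65 for Id1 (adjusted p = 3.20e-05), -1.53 for Id2 (4.92e-04) and -2.26 for Id3 (5.98e-04). For BCAM LO it was -1.79 for Id1 (1.08e-05), -1.71 for Id2 (1.23e-04) and -3.01 for Id3 (3.68e-05). The comparisons share the DIFFERENTIATED EPCS libraries. Bmp7 at 0.427 CPM in DIFFERENTIATED EPCS 7 lay apart from the other 7 libraries of its subset by 0.591 of the whole range, above the limit of 0.526, and rests on 1 count. Of 30 gene and subset pairs looked at, this was the 1 that stood out, and chance gives about 1 in 20.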

How the results depend on the processing

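Bmp7, Smad7 and Id3 kept direction and call against DIFFERENTIATED EPCS under all 13 alternatives to both comparisons. Between BCAM HI and BCAM LO, members called went from 0 to 1 with only the 2 subsets fitted; other pathway genes called went from 3 to 7 there, and to 1 in batch 2 alone, with transcript length offsets, or without the batch 2 BCAM LO libraries. Members called for BCAM HI against DIFFERENTIATED EPCS went from 5 to 3 in batch 2 alone and to 8 by limma with either pseudocount. For BCAM LO they went to 8 by limma on log2(TPM + 0.1) and to 3 with length offsets, and other pathway genes from 31 to 18 in batch 2 alone. TPM shifts all genes: the median of log2(TPM + 0.1) differences was 0.26 for BCAM HI against BCAM LO, 0.75 for BCAM HI and 0.48 for BCAM LO against DIFFERENTIATED EPCS, and 592 of 781, 6809 of 7688 and 4277 of 4901 calls were higher, against 297 of 857, 2363 of 5044 and 1996 of 4086 in CPM. The cause of the changes below was not tested.

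Between BCAM HI and BCAM LO, the sign turned for Bmp4 (-0.0025 and -0.0061 by limma, -0.28 with offsets), Smad7 (-0.077 with offsets) and, without the batch 2 BCAM LO libraries, Id1 (-0.13), Id2 (-0.040) and Id3 (-0.35). For BCAM HI against DIFFERENTIATED EPCS it turned for Tgfb2 (0.074 with no filter, 0.060 with the replicate block, 0.54 in batch 2 alone, 0.48 and 0.39 by limma, 0.0072 without the batch 2 BCAM LO libraries) and Tgfbr2 (-0.16 in batch 1 alone, -0.057 with offsets, -0.13 without the batch 2 DIFFERENTIATED EPCS libraries). In batch 2 alone it turned for Id1 (-0.57), Id2 (-0.40) and, for BCAM LO, Tgfb2 (0.057), Id1 (-0.83) and Id2 (-0.79). Bmp4 lost its call in batch 2 alone and with offsets in both comparisons, and for BCAM LO with only 2 subsets fitted. That fit left Tgfb1 untested. The 2 settings without batch 2 libraries were chosen after seeing the data.

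Leaving out 1 library at a time, Tgfb2 ran from -0.16 to 0.14 and Tgfbr2 from -0.033 to 0.13 for BCAM HI against DIFFERENTIATED EPCS, the BCAM HI against BCAM LO interactions from -0.0142 to 0.41 for Id1 and -0.0073 to 0.51 for Id2, and Bmp7's batch change in DIFFERENTIATED EPCS from -0.77 to 0.0032. Members called between batches ran from 1 to 3 in BCAM HI (1 without BCAM HI 6 or 7) and 2 to 4 in BCAM LO (4 without BCAM LO 8). Same-numbered libraries deviated together weakly, with all 24 correlations above 0 (0.0351 to 0.193) but not all over 0.1. Among libraries of the same batch, 23 of 24 were highest with their own number. The data thus link same-numbered libraries, while the labels do not say what they share. With the number as a replicate block in the comparisons between subsets, calls over all genes were 864, 5129 and 4136, and no member's call changed. The interactions and batch changes were not fitted with the block, and their tests treat the libraries as independent. Depth limits the values of Tgfb1, Fst and Bmp7 in DIFFERENTIATED EPCS, where each library held at most 5 counts of each.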
